A study of Mus musculus with 36 samples.

Results

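The comparison described here is between mice given the high and the low dose of interleukin-6 (IL-6) without tumour necrosis factor (TNF). Its members were the arrays titled as hypothalamus with high or low IL6, which gave 12 of the 36 arrays of the series, 6 IL-6 High and 6 IL-6 Low. IL-6 High mice received 800 pg IL-6 and IL-6 Low mice 50 pg, each in 50 µl given intraperitoneally, and the doses are those stated in the study's methods. All mice were male C57BL/6, with no age given, and were killed 5 h after an injection made shortly before the dark phase. Each array held RNA from the hypothalamus of 1 mouse, so the spread between arrays includes the spread between animals and between dissections. The dose step was also given together with 15 pg TNFα, to 6 mice of the TNF + IL-6 High group and 6 of the TNF + IL-6 Low group, which share no array with the 12 and are used below for comparison. Control and TNF arrays were not used in the comparison.

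IL-6 acts through its receptor Il6ra and the signal-transducing chain gp130 (Il6st), which activates JAK kinases and the transcription factor STAT3. STAT3 raises the transcription of Socs3, an inhibitor that closes the loop, and of acute-phase genes. In the brain, peripheral IL-6 is known to act largely on blood vessels, where prostaglandin synthesis by Ptgs2 contributes to fever and sickness behaviour, and hypothalamic neurons that make Pomc, Npy and related peptides set food intake.

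At 5 h no single gene of the hypothalamus differed between IL-6 High and IL-6 Low mice past the threshold, and for nearly all genes the data bound the difference to a small fold. Of 14590 genes tested with limma, 0 (0%) passed an adjusted p of 0.05 and the smallest adjusted p was 0.999. At an unadjusted p under 0.05 there were 307 genes (2.1%), 186 with a positive difference (1.27%) and 121 with a negative difference (0.829%), where 729.5 is 5% of the genes tested. Without IL-6 Low replicate 4 the split turned, with 113 genes positive and 231 negative. Differences are IL-6 High minus IL-6 Low on the log2 intensity scale, where 1 is a doubling. The median difference was 0.01, with quartiles of -0.04 and 0.06. The 95% interval of the difference lay within a 1.5-fold change in both directions for 14424 genes (98.9%), and within a 2-fold change for 14567 (99.8%). The median standard error was 0.09 and the median half-width of the interval 0.18. Because no gene passed, every difference given below is a description of these arrays. Intervals in brackets are 95% intervals from limma, and every adjusted p was 0.999 or above.

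**Figure D1:**
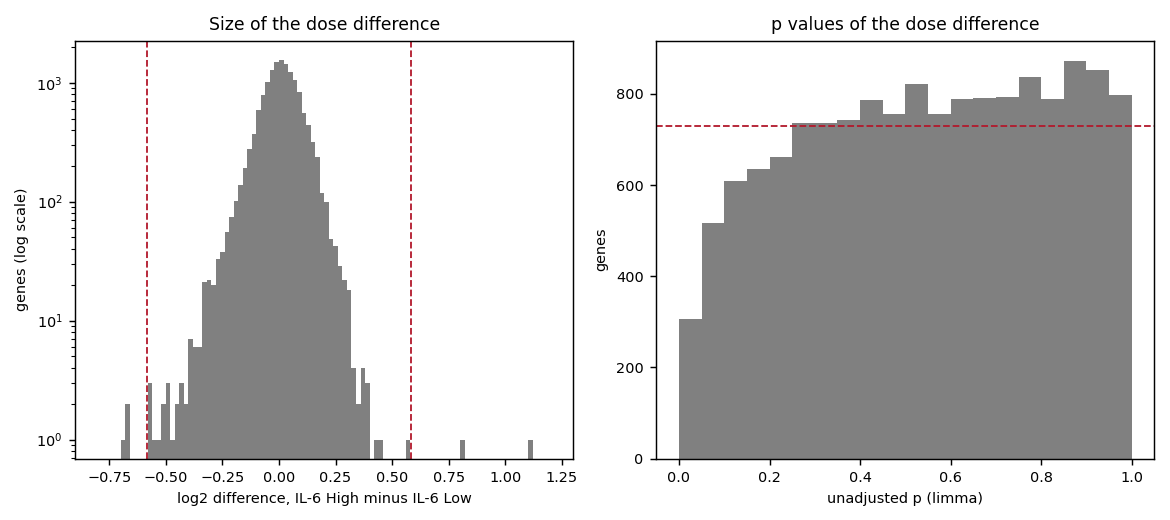
Left, number of genes (log axis) by log2 difference, IL-6 High minus IL-6 Low, over 14590 genes, with dashed lines at a 1.5-fold change. Right, number of genes by unadjusted p, with a dashed line at 729.5, the number per bin of an even spread; the first bin holds 307 genes.

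Quality measures of the 12 arrays were close, with a few arrays at the ends. Their median log2 intensities lay between 5.57 and 5.71, and the median correlation of an array with the other 11 was 0.983 to 0.989. IL-6 High replicate 3 was lowest in both measures. It lay with IL-6 Low replicate 2 furthest at one end of the first principal component (16.87 and 16.83). IL-6 Low replicate 4 had an upper quartile of 7.325, where the other 11 arrays had 7.444 to 7.521. It lay at the other end of that component (-19.96). Over all genes 8052 of 14590 had a positive difference, and without this array 5887 did, so the share of positive differences among all genes, set beside the gene lists below, depended on it. That number was 6320, 7802, 9662 and 5543 within arrays sharing the leading letter E, F, G and H of the array name. The label hypothalamus was matched by Oxt (oxytocin) and Hcrt (hypocretin), whose lowest values on any array were 9.66 and 8.64, above the upper quartile of every array. Of 26 listed markers of hypothalamic neurons 23 were over the minimum intensity. So were 16 of 17 for cerebellum and 15 of 18 for cortex, hippocampus and thalamus, so such counts do not tell regions apart. Markers of neighbouring tissue varied between mice of both groups, as given below.

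IL-6 itself and its receptors came first. Il6 was not over an intensity of 20 on any array, with a highest intensity of 4.82, and was not tested. Il6ra had 5.99, 6.07 and 6.10 (lowest, median and highest log2 intensity) in IL-6 High mice, against 6.05, 6.17 and 6.19 in IL-6 Low mice, a difference of -0.09 (95% interval -0.23 to 0.06). Il6st had 8.98, 9.26 and 9.37 in IL-6 High mice and 9.13, 9.33 and 9.39 in IL-6 Low mice, a difference of -0.07 (-0.22 to 0.08). For both genes the groups overlapped. Osmr, the oncostatin M receptor that also pairs with gp130, had the most negative difference of the family at -0.20 (-0.49 to 0.10). Of the 9 tested ligands and receptors of the IL-6 family, 3 had a positive and 6 a negative difference. With 1 array left out, 1 (without IL-6 High replicate 4) to 5 (without IL-6 Low replicate 6) were positive. None passed, and the intervals of all 9 lay within a 1.5-fold change.

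Among kinases, STATs and their inhibitors, 13 of 18 tested genes had a positive difference, against 55.2% of all genes, and all 18 intervals lay within a 1.5-fold change. Between 10 and 14 were positive with 1 array left out. Within letters E, F, G and H 8, 12, 13 and 8 were positive, with medians of -0.07, 0.06, 0.08 and -0.03. Jak2, a gp130-associated kinase, had 7.74, 7.80 and 7.94 in IL-6 High mice and 7.62, 7.68 and 7.80 in IL-6 Low mice, a difference of 0.13 (-0.01 to 0.27). Tyk2, another kinase of the same family, had a difference of -0.13 (-0.30 to 0.05). Stat3 had 7.94, 8.16 and 8.46 in IL-6 High mice and 7.94, 8.12 and 8.45 in IL-6 Low mice, a difference of 0.04 (-0.17 to 0.25), or -0.01 without IL-6 High replicate 3. The Stat3 ranges of the groups were nearly identical.

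Socs3 was measured by more than 1 transcript cluster, the set of probes assigned to a transcript. The cluster of higher mean, which is annotated with the RefSeq mRNA, had 4.70, 4.90 and 5.07 in IL-6 High mice and 4.73, 4.95 and 5.00 in IL-6 Low mice, a difference of 0.00 (-0.19 to 0.19). The other cluster had 4.60, 4.88 and 5.06 in IL-6 High mice and 4.40, 4.61 and 4.88 in IL-6 Low mice, a difference of 0.28. It was at an unadjusted p under 0.05 in limma, and no cluster passed the adjusted threshold when every cluster was tested. The groups overlapped in both clusters, and the clusters gave different sizes of the dose difference.

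STAT3 binds TTCNNNGAA, which reads the same on both strands. This motif was searched in the 250 bases before the start of each gene in RefSeq (GRCm38.p6), where 8.13% of 27025 genes held it. The windows below are examples from the inflammatory lists, shown because they hold the searched motif, with the motif in capitals and up to 20 bases on each side, written 5′ to 3′ on the gene's strand. They were chosen for the motif after the values were seen.
Socs3: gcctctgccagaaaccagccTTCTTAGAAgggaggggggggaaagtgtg
Icam1: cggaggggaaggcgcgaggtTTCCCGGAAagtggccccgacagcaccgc
Irf1: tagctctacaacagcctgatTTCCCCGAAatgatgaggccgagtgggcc
Tnfrsf1a: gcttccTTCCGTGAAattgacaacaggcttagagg
They lie at chr11:117969492-117969540 (minus strand), chr9:21015878-21015926 (plus), chr11:53769904-53769952 (plus) and chr6:125349473-125349507 (plus) for Socs3, Icam1, Irf1 and Tnfrsf1a in that order.

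For the clusters used here, the interval of the difference included 0 for each of these 4 genes. Icam1, an adhesion molecule of endothelium, had 4.89, 5.11 and 5.42 in IL-6 High mice and 5.02, 5.26 and 5.54 in IL-6 Low mice, a difference of -0.18 (-0.41 to 0.04). Irf1, a transcription factor of the interferon response, averaged 4.92 ± 0.14 in IL-6 High mice and 5.00 ± 0.20 in IL-6 Low mice (SD, n = 6 each), a difference of -0.08 (-0.30 to 0.13). Tnfrsf1a, the TNF receptor of most cells, had a difference of -0.13 (-0.34 to 0.07). Over the 11477 tested genes with a promoter in RefSeq, 825 held the motif. Their median difference was 0.01, against 0.01 for genes without it. Of genes with the motif 3.03% were at an unadjusted p under 0.05, against 2.00% of genes without it. A match to these letters is not evidence of binding.

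**Figure D2:**
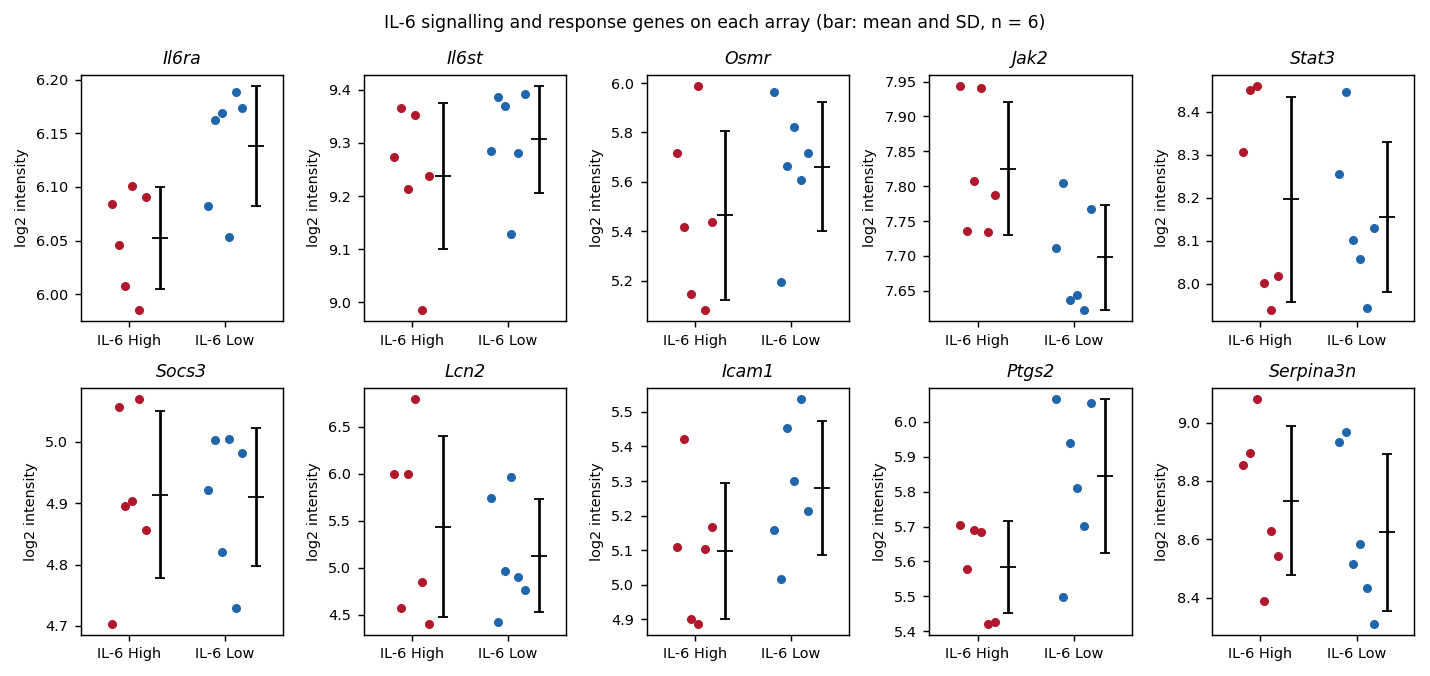
Log2 intensity (vertical axes) of 10 genes of IL-6 signalling and response on each of the 6 IL-6 High and 6 IL-6 Low arrays; each point is 1 mouse and the bar the mean with SD. The groups overlap in every panel, and Ptgs2 averages lower in IL-6 High mice (-0.26).

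Of 22 tested STAT3 and acute-phase targets, 12 had a positive and 10 a negative difference, with a median of 0.03, and 11 were positive without any 1 of 7 arrays. Lcn2 (lipocalin-2), which responds strongly to inflammation in brain, had 4.41, 5.42 and 6.79 in IL-6 High mice and 4.42, 4.93 and 5.97 in IL-6 Low mice, a difference of 0.31 (-0.39 to 1.01). It varied widely within both groups, with a difference of 0.04 without IL-6 High replicate 4 and 0.52 without IL-6 High replicate 6, and its interval left room for a 2.01-fold higher level. Serpina3n, an astrocyte acute-phase gene, had 8.39, 8.74 and 9.08 in IL-6 High mice and 8.31, 8.55 and 8.97 in IL-6 Low mice, a difference of 0.11 (-0.14 to 0.36). Hpx (hemopexin, which binds haem) was the only member at an unadjusted p under 0.05, with 4.23, 4.34 and 4.55 in IL-6 High mice, 3.90, 4.15 and 4.30 in IL-6 Low mice, and a difference of 0.24 (0.03 to 0.45). No IL-6 Low array was over the minimum intensity of 20 for Hpx, so it entered the test only through IL-6 High arrays, where it was higher. Its p and interval are therefore no support for a dose difference. Cp (ceruloplasmin, a copper-carrying acute-phase protein) had a difference of -0.22 (-0.51 to 0.07).

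Genes of the TNF and NF-kB response were balanced, with 9 of 19 positive (up to 11 with 1 array left out) and a median of 0.00, and their extremes were Birc3, an inhibitor of apoptosis, at -0.19 (-0.38 to 0.00) and Traf1, an adaptor of TNF receptors, at 0.18 (-0.02 to 0.37). The chemokine Cxcl1 had a difference of 0.15 (-0.03 to 0.32). Of 21 interferon-response genes, 6 had a positive and 15 a negative difference, with a median of -0.05 and Ifit2, an antiviral effector, lowest at -0.16 (-0.42 to 0.10). The intervals of all 19 and all 21 genes lay within a 1.5-fold change.

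Ptgs2 (cyclooxygenase-2), the inducible enzyme of prostaglandin synthesis, averaged lower in IL-6 High mice. It had 5.42, 5.63 and 5.70 in IL-6 High mice and 5.50, 5.88 and 6.07 in IL-6 Low mice, a difference of -0.26 (-0.47 to -0.05), or 0.834-fold. IL-6 Low replicates 2 and 5 lay within the range of IL-6 High mice, and the other 4 IL-6 Low arrays lay above it. Slco2a1, the prostaglandin transporter of vessel cells, had 4.23, 4.57 and 5.11 in IL-6 High mice and 4.38, 5.13 and 5.23 in IL-6 Low mice, a difference of -0.33 (-0.66 to just below 0). These were the 2 of 19 prostaglandin genes at an unadjusted p under 0.05, where 2.1% of all genes were. Of the 19 genes 13 had a negative difference. Ptges2 (prostaglandin E synthase 2) had the most positive at 0.15 (-0.10 to 0.39).

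Vascular markers averaged lower in IL-6 High mice. All 16 tested endothelial markers had a negative difference, with a median of -0.22 and a range of -0.32 to -0.09, where 55.2% of all genes had a positive one. Tek, the angiopoietin receptor, had 5.75, 6.36 and 6.60 in IL-6 High mice and 6.07, 6.66 and 6.85 in IL-6 Low mice, a difference of -0.32 (-0.61 to -0.02). Nos3, the endothelial nitric oxide synthase, had 4.74, 5.04 and 5.14 in IL-6 High mice and 4.97, 5.24 and 5.62 in IL-6 Low mice, a difference of -0.29 (-0.52 to -0.05). Vwf (von Willebrand factor) and Slco1c1, a thyroid hormone transporter of brain vessels, had differences of -0.24 (-0.46 to -0.02) and -0.22 (-0.44 to just below 0). These 4 genes were the endothelial markers of the 16 at an unadjusted p under 0.05, where 2.1% of all genes were. The members come from the same cells on the same arrays, so they are not independent of each other. Fewer cells of a type and less RNA per cell cannot be told apart in bulk tissue.

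The mean level of the 16 endothelial markers was 6.36 to 7.05 on IL-6 High arrays and 6.48 to 7.14 on IL-6 Low arrays. The groups overlapped, and IL-6 High replicates 2 and 3 and IL-6 Low replicate 2 were lowest. All 16 stayed negative whichever array was left out, with the median between -0.33 (without IL-6 Low replicate 2) and -0.14 (without IL-6 High replicate 3). Within arrays sharing the leading letter of the array name, 13, 16, 14 and 15 of the 16 were negative for letters E, F, G and H, each with 1 or 2 mice a group. Of 15 smooth muscle and pericyte markers 14 had a negative difference (median -0.14), among them Mylk (myosin light chain kinase) at -0.21 (-0.40 to -0.02).

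Vasoactive genes followed the same direction in part. Adm (adrenomedullin, a vasodilator peptide) had 4.08, 4.56 and 4.74 in IL-6 High mice and 4.56, 4.72 and 5.14 in IL-6 Low mice, a difference of -0.32 (-0.59 to -0.06). Agt (angiotensinogen), made by astrocytes, had 10.23, 10.36 and 10.61 in IL-6 High mice and 10.13, 10.26 and 10.37 in IL-6 Low mice, a difference of 0.15 (0.00 to 0.30). Of 19 hypoxia and vasoactive genes 6 had a positive difference and 13 a negative one.

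**Figure D3:**
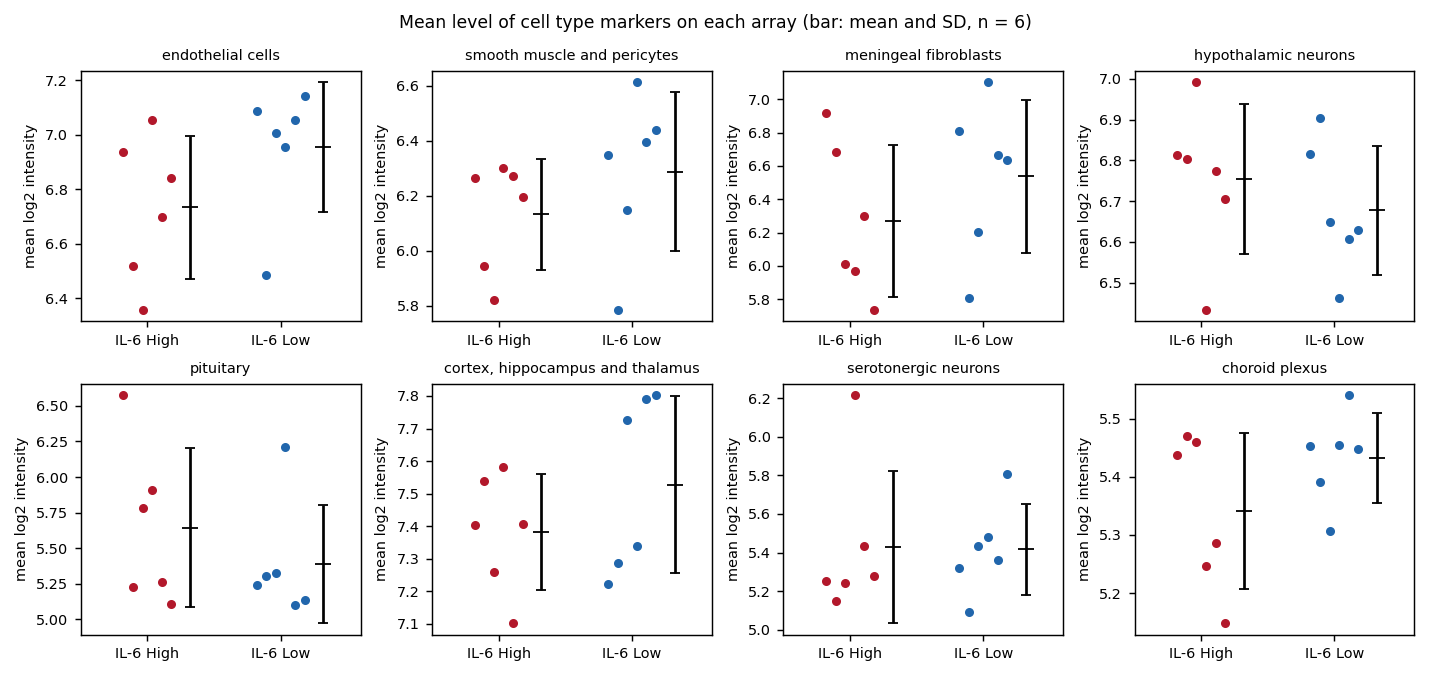
Mean log2 intensity (vertical axes) of tested markers of 8 cell types or tissues on each of the 6 IL-6 High and 6 IL-6 Low arrays; each point is 1 mouse, the bar the mean with SD. Endothelial markers run from 6.36 to 7.05 in IL-6 High and 6.48 to 7.14 in IL-6 Low, and the groups overlap in every panel.

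All 22 markers of meningeal fibroblasts also had a negative difference (median -0.31), but none was at an unadjusted p under 0.05. Igf2, a growth factor made by meninges, had 6.96, 7.54 and 8.72 in IL-6 High mice and 7.11, 8.30 and 8.81 in IL-6 Low mice, a difference of -0.44 (-0.98 to 0.10). The mean marker level was 5.74 to 6.92 on IL-6 High arrays and 5.81 to 7.10 on IL-6 Low arrays. The direction turned within letters E and F, where the medians were 0.14 and 0.36, while those of G and H were -0.77 and -0.90. Ttr (transthyretin, the thyroid hormone carrier of choroid plexus) had 4.59, 5.00 and 5.90 in IL-6 High mice and 4.93, 5.85 and 6.10 in IL-6 Low mice, a difference of -0.58 (-1.01 to -0.14). The 11 choroid plexus markers as a whole had a median of -0.01, with 4 positive, or 6 without IL-6 High replicate 4, IL-6 Low replicate 4 or IL-6 Low replicate 6. The part of meninges and choroid plexus in the vascular differences was not tested.

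Only 5 genes (0.0343%) had group means more than 1.5-fold apart, 2 higher (0.0137%) and 3 lower (0.0206%), while 209 (1.43%) were more than 1.2-fold apart. In the 5, values varied within groups by more than in the median gene, whose SD was 0.15 in IL-6 High and 0.14 in IL-6 Low mice. Gh (growth hormone) and Prl (prolactin), hormones of the anterior pituitary, had the largest positive differences, 1.11 (-0.99 to 3.21) and 0.82 (-0.65 to 2.29). Gh had 4.79, 7.06 and 10.52 in IL-6 High mice, where replicates 1, 3 and 4 were at 8.52 or above, and 5.25, 5.58 and 11.14 in IL-6 Low mice, where all but replicate 4 were at 5.88 or below. Prl had 3.54, 4.87 and 8.13 in IL-6 High mice and 3.54, 3.95 and 7.66 in IL-6 Low mice, with the same arrays highest in each group. With 1 array left out, the Gh difference ran from 0.52 (without IL-6 High replicate 1) to 2.05 (without IL-6 Low replicate 4), and the Prl difference from 0.26 to 1.45 without the same arrays. Of 13 pituitary markers 11 had a positive difference, against 55.2% of all genes (median 0.17, or 0.03 without IL-6 High replicate 1). No gene was more than 1.5-fold higher without IL-6 High replicate 1 or without replicate 4.

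The remaining 3 genes had negative differences. Prkcd and Shox2, both expressed in thalamic neurons, had differences of -0.69 (-1.56 to 0.18) and -0.67 (-1.26 to -0.08). Prkcd had 6.75, 7.42 and 8.80 in IL-6 High mice and 6.59, 8.51 and 9.46 in IL-6 Low mice, and Shox2 had 4.09, 4.65 and 5.54 in IL-6 High mice and 4.56, 5.54 and 6.30 in IL-6 Low mice. Both were highest in IL-6 Low replicates 3, 5 and 6, and IL-6 High replicate 4 was the highest of its group. Plekhg1, Lhx9 and Prox1 had differences of -0.38 (-0.91 to 0.14), -0.32 (-0.74 to 0.10) and -0.28 (-0.52 to -0.04). With Prkcd they are named as the members of smallest p of their list. Prkcd and these 3 genes, but not Shox2, belong to the 15 tested markers of cortex, hippocampus and thalamus, of which 7 had a positive and 8 a negative difference (median -0.04), with 10 of 15 positive within letter E and the cortical gene Nptx1 highest at 0.14. Chrna5, a nicotinic receptor subunit, had 3.64, 3.89 and 4.90 in IL-6 High mice and 4.01, 4.81 and 5.42 in IL-6 Low mice, a difference of -0.68 (-1.15 to -0.20). Fewer than 3 IL-6 High arrays were over the minimum intensity of 20, so Chrna5 entered the test through IL-6 Low arrays, where it was higher. Its interval is therefore no support for a dose difference.

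The genes of smallest p, chosen by rank, were of moderate size. Among those with a positive difference were Scx (scleraxis, a transcription factor of tendon) at 0.32 (0.13 to 0.52), Slc4a11 (a membrane transporter) at 0.39 (0.13 to 0.64), Mid1 (a ubiquitin ligase) at 0.32 (0.11 to 0.52) and Mup6 (a major urinary protein) at 0.44 (0.14 to 0.75). Among those with a negative difference were Lrrc32, which anchors latent TGF-beta on the cell surface, at -0.49 (-0.77 to -0.21), Lama4, a laminin of vessel basement membrane, at -0.36 (-0.60 to -0.12), and Gpt (alanine aminotransferase) at -0.31 (-0.51 to -0.12). The arrays of the groups did not overlap for 7 genes (0.048%), with IL-6 High arrays above for 4 (0.0274%; 9930012K11Rik, Daglb, Krt90 and Sec14l3) and below for 3 (0.0206%; Tdrd5, Ulk3 and Zap70). Those outside the ranked genes are named because their number is small. Sec14l3 was 4.70 to 5.19 in IL-6 High mice and 4.42 to 4.64 in IL-6 Low mice.

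Glucocorticoid-responsive genes mostly had positive differences, 16 of 20, against 55.2% of all genes, with a median of 0.10. Pdk4, a kinase that turns cells from glucose to fat use, had 5.53, 5.91 and 6.30 in IL-6 High mice and 5.40, 5.47 and 5.85 in IL-6 Low mice, a difference of 0.38 (0.14 to 0.61). IL-6 Low replicate 5 was the only IL-6 Low array above the lowest IL-6 High array. Angptl4, an inhibitor of lipoprotein lipase, had 4.94, 5.19 and 5.53 in IL-6 High mice and 4.88, 4.97 and 5.05 in IL-6 Low mice, a difference of 0.24 (0.03 to 0.44). Sgk1, a kinase induced by corticosteroids, had 7.47, 8.14 and 8.72 in IL-6 High mice and 6.82, 7.50 and 8.72 in IL-6 Low mice, a difference of 0.42 (-0.15 to 0.99), with values of 8.65 or above in 3 IL-6 High mice and 1 IL-6 Low mouse. The receptor Nr3c1 had a difference of -0.03 (-0.26 to 0.20). Between 15 and 18 of the 20 were positive whichever array was left out, and 13, 17, 12 and 14 were positive within letters E, F, G and H. Corticosterone was not among the values analysed here.

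**Figure D4:**
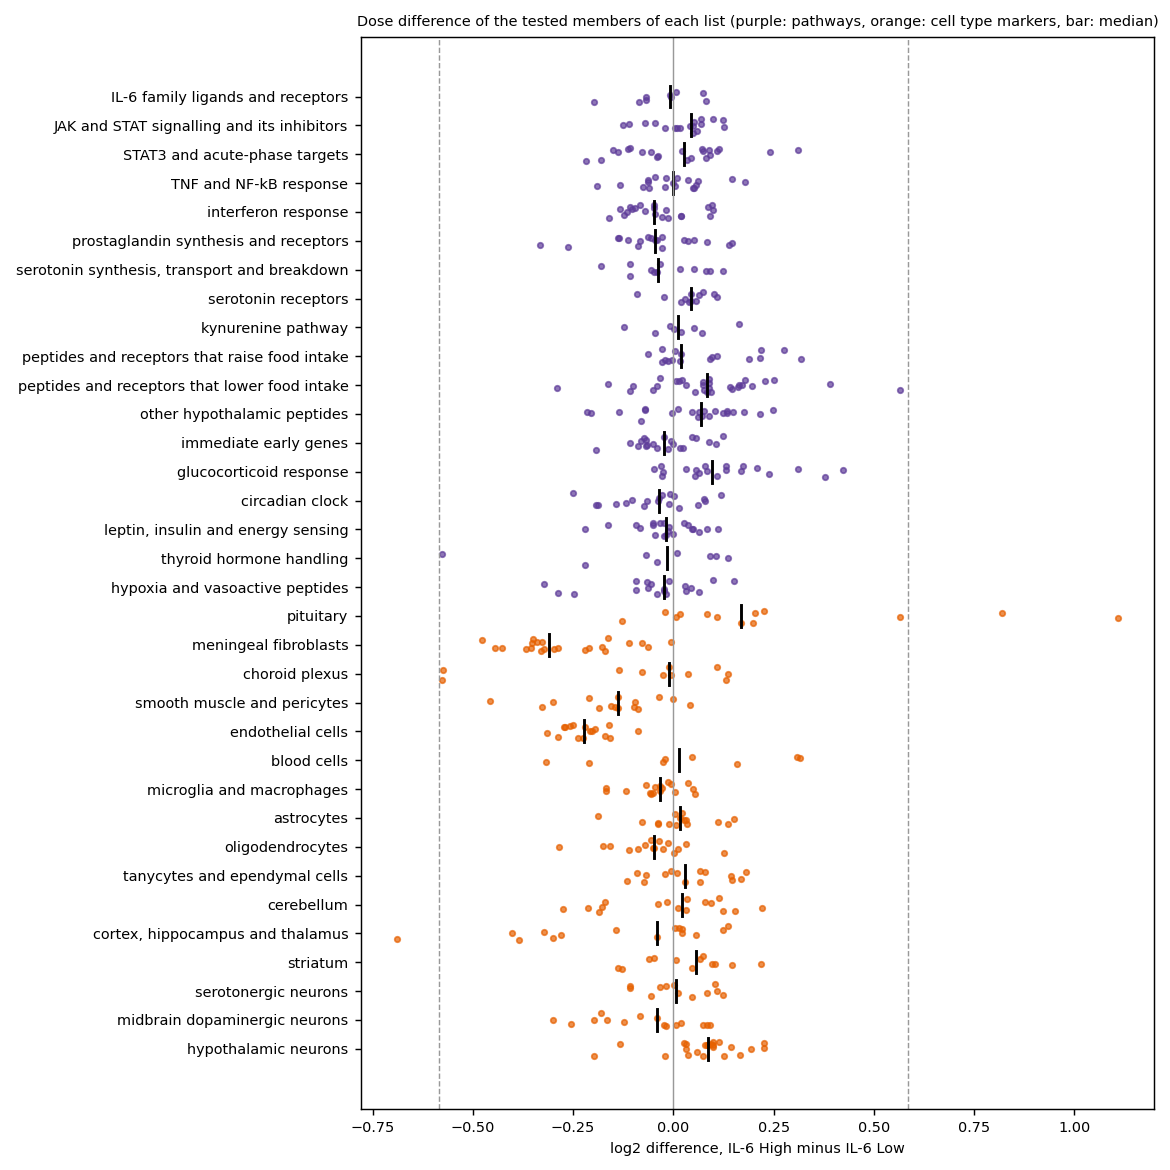
Log2 difference, IL-6 High minus IL-6 Low (horizontal axis), of each tested member of 18 pathway lists (purple) and 16 marker lists (orange), with a black bar at the median and dashed lines at a 1.5-fold change. The medians are lowest for meningeal fibroblasts (-0.31) and endothelial cells (-0.22) and highest for pituitary (0.17) and glucocorticoid response (0.10).

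Genes of feeding peptides and their receptors had differences of both signs, with intervals that included 0 for most. Of 31 tested genes that lower food intake 24 had a positive difference (median 0.08), as had 11 of 17 that raise it (median 0.02) and 55.2% of all genes. Without IL-6 High replicate 3, 8 of the 17 were positive, with a median just below 0, and within letter E the medians of the lists were -0.05 for the 31 genes and -0.10 for the 17. Oxt had 10.02, 10.69 and 10.93 in IL-6 High mice and 9.66, 10.10 and 10.71 in IL-6 Low mice, a difference of 0.39 (0.06 to 0.72). Pomc, the melanocortin precursor, had 5.59, 6.20 and 7.82 in IL-6 High mice and 5.28, 5.79 and 6.48 in IL-6 Low mice, a difference of 0.56 (just below 0 to 1.13). Pomc is also made by the pituitary, and its highest array was IL-6 High replicate 1, the array with the highest pituitary markers, without which the difference was 0.28.

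Npy, which drives feeding, had 7.26, 8.24 and 8.59 in IL-6 High mice and 7.74, 7.85 and 8.33 in IL-6 Low mice, a difference of 0.22 (-0.13 to 0.56). Hcrt had 8.91, 9.78 and 9.85 in IL-6 High mice and 8.64, 9.50 and 9.96 in IL-6 Low mice, a difference of 0.28 (-0.11 to 0.67). Cartpt, an anorexigenic peptide, and Gal (galanin) had differences of 0.17 (-0.11 to 0.46) and 0.32 (-0.11 to 0.75), and Lepr, the leptin receptor, one of -0.16 (-0.36 to 0.04). Cck (cholecystokinin, a satiety peptide) had the most negative difference of the genes that lower intake, -0.29 (-0.74 to 0.16). The groups overlapped for each of these genes. Of 23 markers of hypothalamic neurons 20 also had a positive difference, against 55.2% of all genes. Their median of 0.09 was close to that of the peptides that lower intake, and whether the amount of hypothalamic tissue contributed was not tested.

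Of 22 other hypothalamic peptides and receptors 15 had a positive difference, against 55.2% of all genes, among them Prok2, a circadian output peptide, at 0.22 (0.01 to 0.43). Immediate early genes, which report recent neuronal activity, had 7 positive and 14 negative differences (11 positive without IL-6 Low replicate 2), with Dusp1, a phosphatase, at -0.19 (-0.36 to -0.02). Of 19 clock genes 6 had a positive difference, and of 21 genes of leptin, insulin and energy sensing 7 did, or 13 without IL-6 High replicate 5.

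Of 12 tested genes of serotonin synthesis, transport and breakdown, 10 had intervals within a 1.5-fold change, and Tph2 and Slc6a4 had wider ones. These 12 had 5 positive and 7 negative differences (median -0.04), or 3 to 7 positive with 1 array left out. Tph2, which makes serotonin in neurons, had 3.86, 4.11 and 6.86 in IL-6 High mice and 3.73, 4.31 and 5.70 in IL-6 Low mice, a difference of 0.12 (-0.69 to 0.94). Slc6a4, the serotonin transporter, had 3.95, 4.05 and 6.996 in IL-6 High mice and 4.17, 4.44 and 5.68 in IL-6 Low mice, a difference of -0.11 (-0.93 to 0.71). Apart from replicate 4, every IL-6 High array lay below the minimum intensity of 20 for Slc6a4 (next value 4.07). For Tph2 the second highest values, 4.44 in IL-6 High and 4.41 in IL-6 Low mice, were near that minimum. IL-6 High replicate 4 and IL-6 Low replicate 6 were highest for both genes, and without IL-6 High replicate 4 the differences were -0.34 for Tph2 and -0.60 for Slc6a4. Without IL-6 Low replicate 6 they were 0.38 for Tph2 and 0.10 for Slc6a4, so the direction of either gene rested on 1 array. Both genes are made in cell bodies of the raphe, which lies outside the hypothalamus. Ddc, which completes serotonin and dopamine synthesis, was also highest in IL-6 High replicate 4, with a difference of 0.09 (-0.19 to 0.37), or -0.05 without that array. Of 12 serotonin receptors 10 had a positive difference (median 0.04), against 55.2% of all genes, or 6 without IL-6 Low replicate 4 (median 0.00). All 12 intervals lay within a 1.5-fold change, with Htr2a at 0.10 (-0.09 to 0.29). Of 8 genes of the kynurenine pathway, which degrades tryptophan, 5 had a positive difference (3 without IL-6 High replicate 3), and the largest was Qprt at 0.16 (-0.07 to 0.40).

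The same dose step in mice that also received TNF gave 0 genes past the adjusted threshold (0%; smallest adjusted p 0.886) and 611 genes (4.19%) at an unadjusted p under 0.05. With TNF, 2 genes (0.0137%) were more than 1.5-fold higher and 19 (0.13%) lower. No gene had a dose difference without TNF that differed from that with TNF at an adjusted p of 0.05 in limma (0%), and 372 (2.55%) did at an unadjusted p under 0.05. Across genes, which are not independent, the dose differences without and with TNF correlated at 0.13 (Pearson) and 0.16 (Spearman), and 55.4% had the same sign.

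Pituitary genes ran opposite ways in the 2 settings, with Gh at 1.11 without TNF and -0.58 with TNF, a difference of 1.69 (-2.28 to 5.66), and Prl at 0.82 and -0.98, a difference of 1.80 (-1.61 to 5.21). Meningeal markers had a median of -0.31 without TNF and 0.35 with TNF, and Igf2 differed between the settings by -0.84 (-1.61 to -0.07). The thalamic genes Prkcd and Shox2 ran the same way, at -0.69 and -0.67 without TNF and -0.98 and -0.82 with TNF. The endothelial markers had a median of -0.22 without TNF and 0.01 with TNF, and the glucocorticoid genes 0.10 and -0.01. Lcn2, whose value without TNF rested on 1 array as given above, was at 0.31 without TNF and -0.54 with TNF, a difference of 0.85 (-0.38 to 2.08). Hpx, which entered the test only through IL-6 High arrays as given above, differed by 0.39 (0.09 to 0.69). For that reason its interval is no support for a difference between the settings, and it did not pass the adjusted threshold.

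**Figure D5:**
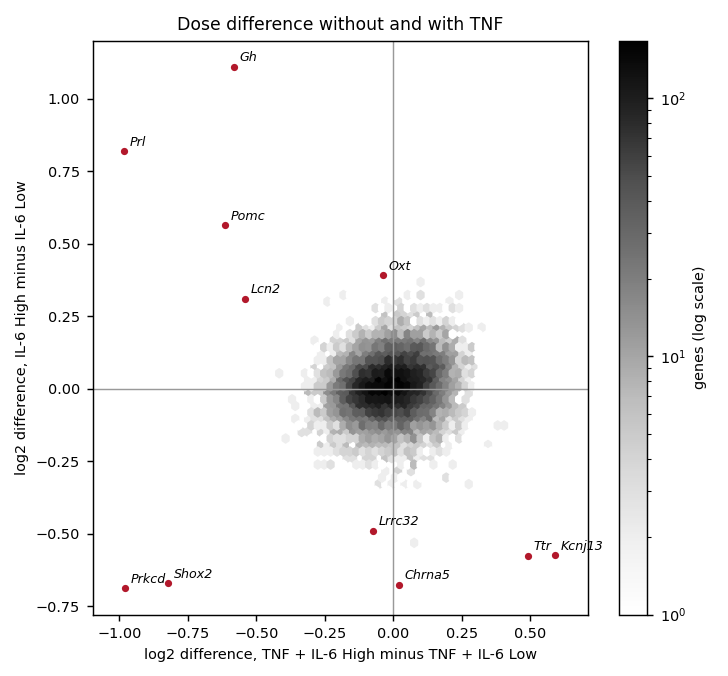
Log2 dose difference without TNF (vertical axis, IL-6 High minus IL-6 Low) against that with TNF (horizontal axis, with TNF in both groups); grey hexagons hold 14590 genes (log colour scale) and red points mark 11 named genes. Most genes lie near 0 on both axes (Pearson correlation 0.13), and Gh and Prl lie apart.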

How the data were processed

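The deposited table gives log2 intensity values, computed by the authors with RMA (version not given in the sources used here) from Affymetrix Mouse Gene 1.1 ST arrays, and was used as deposited. The study's methods remap probes to Entrez genes. The deposited rows are transcript clusters, of which 21218 name 1 gene, 1881 several and 12457 none (21185 of the first matched RefSeq). Each of 18820 genes was represented by its brightest cluster, and 14590 with an intensity over 20 on at least 3 of the 12 arrays were tested. Mice were taken as independent animals, and the number of arrays limits the precision.

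R 4.3.3 and limma 3.58.1 (lmFit, eBayes with an intensity trend) compared the groups, with Benjamini-Hochberg adjustment over all genes tested, and 24 arrays gave the interaction with TNF. Fits were tested on simulated data. Genes named are the 10 of smallest p in each direction, up to 4 of smallest p in each list, a fixed set of IL-6, feeding, serotonin and pituitary genes, and Shox2, added for its fold. Predicted genes, sensory receptors, antigen receptor segments and small RNAs were left out of the ranked genes. A few genes outside the rule are named to describe a list or a promoter. Members and lists were chosen with earlier results of these data known. One gene of the paper is not reported. Alternatives were other intensity filters, scalings, weights, moderation, clusters, arrays in the fit, blocks and each array left out. Of the series' arrays, TNF replicate 4 stands apart and is not among the 12. The study's methods exclude 1 TNF array, yet the deposited table holds all 36, so the values of the 12 may have been normalised together with that array. The labels do not say whether replicate numbers pair the mice, and the main fit did not pair them.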

Additional observations from a re-analysis of the deposited data

Results flagged for a closer look

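In each group of 6 arrays, the highest or lowest value was flagged where its gap to the next exceeded Dixon's critical share of the range. Of 344 groups of values (named genes and marker lists), 33 were flagged, and chance flags about 1 in 20. No named gene had a dose difference that differed without and with TNF at an adjusted p of 0.05 in limma (0 of 156). At an unadjusted p under 0.05 there were 13 of the 156, against 2.55% of all genes. The named genes were chosen in part by a small p of the dose difference.

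IL-6 High replicate 4 held 11 of the flagged values, all of them highest. They were Tph2 at 6.86 and Slc6a4 at 6.996 (next 4.44 and 4.07), Ddc at 9.06, Ret at 9.19, Aldh1a1 at 9.81, Cstdc6 at 4.22, the oligodendrocyte genes Ugt8a at 10.03, Ermn at 10.40 and Aspa at 8.51, and the mean levels of serotonergic markers (6.21) and oligodendrocyte markers (9.20). IL-6 Low replicate 4 held 7, with Gh at 11.14 and Prl at 7.66 (next 5.88 and 4.30), the mean pituitary level at 6.21, Lepr at 5.92 and Slc2a4 at 5.41 highest, and Htr4 at 6.39 and Aldh1l1 at 6.78 lowest. IL-6 Low replicate 2 was lowest for the endothelial markers (6.48) and Pdgfrb (6.66), and highest for Nr4a3 (5.75) and Kyat1 (6.38).

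In IL-6 Low mice, replicate 6 was highest for Tph2 (5.70) and Slc6a4 (5.68), replicate 5 highest for Pdk4 (5.85) and lowest for Fgf10 (5.18), and replicate 3 lowest for Tnfrsf1a (5.88). In IL-6 High mice, replicate 1 was highest for Lrrc32 (5.35) and Lhb (5.93), replicate 3 highest for Sec14l3 (5.19) and lowest for Vwf (5.46), and replicate 6 highest for the cerebellar markers (6.67) and lowest for Rarb (6.39).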

How the results depend on the processing

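No alternative gave a gene past the adjusted threshold for the dose difference, where the smallest adjusted p was 0.368 (without IL-6 High replicate 1), or for its difference without and with TNF. The count at an unadjusted p under 0.05 was 307, against 495 with no filter on intensity, 180 with an intensity over 50, 775 with array weights (278 positive, 497 negative, so the split turned, as it did to 113 and 231 without IL-6 Low replicate 4), 469 with the leading letter of the array name as a block and 59 with all 36 arrays in 1 model. Leaving out 1 array gave 196 (without IL-6 High replicate 3) to 808 (without IL-6 High replicate 4), and 780 without IL-6 Low replicate 2. The count past a 1.5-fold change was 5, and 5 to 22 with 1 array left out (22 without IL-6 Low replicate 2, 14, 10 and 9 without IL-6 High replicates 1, 2 and 4, and 8 without IL-6 Low replicate 1 or 3). The count of intervals within a 1.5-fold change with 1 array left out was 14337 to 14444. With all 36 arrays in 1 model it was about 11730. Without TNF replicate 4, the model of 35 arrays gave about 14310 such intervals and 207 genes at an unadjusted p under 0.05. The cause of the other shifts was not tested.

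Replicate numbers are shared by the groups, but same-numbered arrays deviated together at a correlation over 0.1 in only 2 of 6 pairs. Of the IL-6 High arrays 1 correlated best with its own number, and of the IL-6 Low arrays 0 did. The values thus gave no clear pairing by number, but 6 pairs cannot exclude a shared block. The labels do not say whether mice were matched. With the replicate number as a block, 511 genes were at an unadjusted p under 0.05 and 0 passed.

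Of 3698 alternative values of the 156 named genes, 3696 moved by less than 1 SD, and 20 values in 7 genes changed sign. The exceptions to the first count were the other transcript clusters of Socs3 (0.28) and Hes7 (0.02). Most alternatives could not reach 1 SD. Other filters, moderation, blocks and arrays in the fit leave a difference of means unchanged, and leaving out 1 array shifts it by less. The count is therefore no measure of robustness. Medians of lists by array left out or by letter were added after seeing the data.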
